A study of Homo sapiens with 40 samples.

Results

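The genes described are the nuclear genes for subunits of the 5 complexes of oxidative phosphorylation. They were chosen by symbol alone: protein-coding genes named NDUFA, NDUFB, NDUFC, NDUFS, NDUFV, UQCR, ATP5F1, ATP5M, ATP5P or COX4 to COX8, with SDHA to SDHD and CYC1, and without the NDUFAF assembly factors and pseudogenes. The rule found 90 of the 60651 genes in the count tables, of which 37 belong to complex I, 4 to complex II, 10 to complex III, 19 to complex IV and 18 to complex V; the other 2, ATP5MF-PTCD1 and NDUFC2-KCTD14, are readthrough genes. The layer tables held 79 of them among 16742 genes and the H9 data held 82 among 23549.

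The series is polyA RNA sequencing of 40 libraries, 2 in each of 20 groups, from the established human embryonic stem cell lines SEES3 and H9. The question is what loss of the histone demethylase genes UTX (symbol KDM6A) and UTY does, alone and together. The SEES3 groups were wild type (WT), UTXKO, UTYKO with a wild-type set of its own (UTYKO_ctrl), and DKO, read here as knockout of both genes, all undifferentiated. Further SEES3 groups carry titles in Endo, Meso and Ecto, taken here as endoderm, mesoderm and ectoderm, each as WT, XKO, YKO and DKO. H9 groups were WT and a pair of UTXKO sets, 3 and 4. The labels do not say how each gene was disrupted, how many clones a group holds or whether its libraries came from separate cultures, so p-values measure only the spread between these libraries. Library totals of the undifferentiated SEES3 cells ran from 5781357 to 14973722 counts; the depth behind the TPM tables is unknown.

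RNA levels did not settle the labels. KDM6A stood at 98.2 and 85.8 CPM (counts scaled to the library's total) in WT against 88.2 and 106 in UTXKO and 78.2 and 82.3 in DKO. UTY stood at 36.4 and 34.9 CPM in WT and 34.5 and 24.5 in UTYKO_ctrl, against 59.7 and 51.0 in UTYKO and 56.99 and 58.4 in DKO. KDM6A RNA was thus not lower in UTXKO (log2 change 0.09, adjusted p = 0.617, edgeR), but was somewhat lower in DKO (log2 change -0.24, adjusted p = 0.0137, edgeR). UTY RNA was higher in both groups labelled as lacking UTY. In the layers KDM6A stood at 31.3 and 34.8 TPM in Endo WT against 34.7 and 36.1 in XKO and 20.7 and 19.4 in DKO, but Meso and Ecto DKO, at 6.72 to 14.1, were above their WT, at 4.14 to 10.9. No layer or H9 comparison called KDM6A, and no layer comparison called UTY (limma). Group names below therefore stand for the libraries so labelled. Pluripotency markers, 7 of 7 detected, summed to 4935 to 5645 CPM in the 10 undifferentiated libraries and 6383 to 7767 TPM in the 6 H9 libraries. They were still at 4160 to 6786 TPM in the Endo libraries, where the 7 endoderm markers summed to 8918 to 31654 TPM, and at 2392 to 5338 TPM in the Ecto libraries, where the 7 neural markers summed to 808 to 3159 TPM. In Meso they were at 946 to 1225 TPM and the 7 mesoderm markers at 1635 to 2718.

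Oxidative phosphorylation takes electrons from NADH at complex I and from succinate at complex II, passes them through complex III and cytochrome c to oxygen at complex IV, and uses the proton gradient so built to make ATP at complex V, the ATP synthase. Complexes I, III, IV and V combine nuclear subunits with a few that mitochondrial DNA encodes, whereas complex II is wholly nuclear and is also an enzyme of the citric acid cycle. Pluripotent stem cells are known for high glycolysis beside a working respiratory chain, and nuclear subunit genes are known targets of the factors NRF1 and of the ETS family, which includes NRF2.

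Stretches before the gene starts show what letters such genes carry. RefSeq promoters (GRCh38.p14) matched 71 of the 90 genes, and the 250 bases before the start were searched on both strands. The NRF1 letters GCATGCGC were found in 12 of 71 (16.9%), against 2.81% of all 27305 promoters. The ETS letters CCGGAAG were found in 17 of 71 (23.9%), against 8.82% of all, and the YY1 letters AAGATGGC in 1 of 71 (1.41%), against 1.37% of all. Since GCATGCGC read on the opposite strand overlaps itself, a run of GCGCATGCGC is a match on both strands. Among the 28 matched genes called lower in DKO against WT below, 6 held the NRF1 letters and 10 the ETS letters. The 4 stretches printed here, each outside every annotated exon, precede genes from 4 complexes that were lower in DKO; capitals mark NRF1 or ETS letters on either strand.
SDHB, chr1:17054171-17054282, minus strand: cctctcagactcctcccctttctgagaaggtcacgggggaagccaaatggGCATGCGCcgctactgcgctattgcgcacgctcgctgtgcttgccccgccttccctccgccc
NDUFB4, chr3:120596086-120596308, plus strand: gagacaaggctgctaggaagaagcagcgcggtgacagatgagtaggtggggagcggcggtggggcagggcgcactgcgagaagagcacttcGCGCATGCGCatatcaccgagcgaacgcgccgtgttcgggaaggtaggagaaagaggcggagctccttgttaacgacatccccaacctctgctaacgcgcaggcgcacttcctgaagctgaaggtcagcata
COX5B, chr2:97645812-97646039, plus strand: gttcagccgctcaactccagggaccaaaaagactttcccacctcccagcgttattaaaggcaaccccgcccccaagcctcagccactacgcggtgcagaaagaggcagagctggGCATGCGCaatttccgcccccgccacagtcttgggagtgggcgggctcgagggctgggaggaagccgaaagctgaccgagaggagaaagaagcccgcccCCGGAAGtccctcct
ATP5PD, chr17:75046986-75047183, minus strand: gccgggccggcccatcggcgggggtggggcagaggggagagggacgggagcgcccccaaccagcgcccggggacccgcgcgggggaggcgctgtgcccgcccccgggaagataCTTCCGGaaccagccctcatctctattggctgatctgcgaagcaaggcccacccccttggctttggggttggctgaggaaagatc
In SDHB the NRF1 letters begin 200 bases before the start (ETS letters at 128 lie outside the stretch shown), and in NDUFB4 the matches on the 2 strands begin at 157 and 159 bases and overlap. COX5B holds NRF1 letters at 136 bases and ETS letters at 37, and ATP5PD holds ETS letters on the opposite strand at 101. A match is a description of letters, not a bound site.

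Levels can be compared between genes only per length, as TPM (transcripts scaled to a fixed library total). In H9 WT the subunit genes had a median of 119 TPM, against 4.55 for all genes of the table, and ranged from 0.034 to 2182. ATP5F1B, the catalytic beta subunit of the ATP synthase, was highest at 2182 ± 37.0 TPM (mean ± SD, n = 2 libraries, as below). NDUFS5, a supernumerary subunit of complex I, followed at 1639 ± 336. The highest of the other complexes were UQCRH, the hinge protein of complex III, at 853 ± 118, COX8A of complex IV at 797 ± 136, and SDHC, a membrane anchor of complex II, at 221 ± 18.7. UQCRH and COX8A did not differ beyond their spread, nor did COX8A and COX7C at 754 ± 17.2. The same 2 genes led in all 3 layers: ATP5F1B averaged 1927 TPM in Endo WT, 1876 in Meso WT and 1638 in Ecto WT, and NDUFS5 averaged 1218, 1872 and 915.

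A few subunits of complexes I and II had low levels, with 5 of 37 and 1 of 4 under 5 TPM in H9 WT. NDUFV2, an electron-transfer subunit of complex I, had 4 to 14 counts per undifferentiated library and 0.565 ± 0.772 TPM in H9 WT. NDUFA7 had 35 counts over all 10 libraries together. NDUFA13, NDUFA9 and the core subunit NDUFS7 stood at 2.68 ± 2.22, 4.02 ± 0.462 and 4.70 ± 2.08 TPM in H9 WT. SDHA, the flavoprotein of complex II, stood at 2.81 ± 0.881 TPM in H9 WT, far under SDHC, from 89 to 295 counts per undifferentiated library. For SDHA, 51.7% of the counts of gene plus named pseudogenes fell on the pseudogenes, and for NDUFV2 43.8%, whereas over all members the share was 0.315%. NDUFA7 and NDUFV2 share 32.3% and 28.4% of their exon bases with another gene on the same strand. For NDUFA13, NDUFA9 and NDUFS7 that share was 21.0%, 10.6% and 0%. Not only low genes share exons: the share was 34.5% for COX8A, the highest of complex IV above, 33.8% for NDUFB8 and 30.9% for COX6B2. The values of SDHA, NDUFV2 and NDUFA7 are therefore uncertain, and the limit from shared exons holds for COX8A, NDUFB8 and COX6B2 too. No source used here says how reads shared between genes were counted.

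Complex IV and a few other complexes have tissue-restricted or paralogous forms beside common ones. Counts and CPM are not scaled by length, so in them a form and its partner are not on a like scale. The median coding transcript is 1663 bases for COX6B2 and 474 for COX6B1, for example. The heart and muscle forms were near 0 in the undifferentiated cells: COX6A2 had 1 count over the 10 libraries together and COX7A1 had 7. COX4I2, a form known from lung, had 2 counts, the testis forms COX8C and COX7B2 had 3 and 0, and ATP5MGL had 6. COX6B2, known from testis, reached 1.52 CPM at most, with a median of 0.679 over the 10 libraries. Their common partners were all well read: over the same 10 libraries the median was 257 CPM for COX4I1 (lowest 237, highest 322), 35.2 for COX6A1 (29.9 to 47.4), 159 for COX6B1 (142 to 189), 123 for COX7A2 (107 to 161), 83.1 for COX7B (72.5 to 108), 122 for COX8A (107 to 147) and 73.3 for ATP5MG (61.1 to 97.4).

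In the layers and H9 the common forms were read in every library. Median TPM over the 8 Endo, 8 Meso, 8 Ecto and 6 H9 libraries was 226, 292, 212 and 229 for COX4I1, and 447, 654, 433 and 448 for COX6B1. COX8A had medians of 589, 672, 609 and 710 TPM in the same order, COX7A2 had 235, 271, 207 and 266, and COX6A1 had 158, 157, 151 and 165. COX7B was lower, at 75.02, 96.9, 64.0 and 113 TPM, as was ATP5MG at 37.7, 44.9, 35.3 and 45.9. NDUFA4L2, a paralogue of NDUFA4 known from low oxygen, was listed at 0 in 7 of 8 Endo and 7 of 8 Ecto libraries, but was above 0 in all 8 Meso libraries, at 1.35 to 15.3 TPM with a median of 2.35. NDUFA4 itself had medians of 189, 244, 220 and 265 TPM over Endo, Meso, Ecto and H9. UQCRHL, an intronless copy of UQCRH, had medians of 6.41, 4.96, 3.94 and 10.6 TPM against 532, 817, 648 and 802 for UQCRH, and reads could be split between them. In the undifferentiated cells the medians were 4.50 CPM for UQCRHL, 181 for UQCRH, 167 for NDUFA4 and 0.114 for NDUFA4L2. These CPM are not scaled by length, with a median coding transcript of 2180 bases for UQCRHL and 604 for UQCRH.

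Summed over all subunit genes, the undifferentiated cells gave 9670.0 and 10397 CPM in WT and 9438 and 9861 in UTYKO_ctrl. UTXKO libraries were at 9921 and 10906 and UTYKO libraries at 9372 and 10019.7. Both DKO libraries, at 8829 and 9188, lay below the other 8 in this total. By complex this held for III and V only. In complex I, DKO stood at 2252 and 2340 CPM and a UTYKO_ctrl library at 2314. In complex II, DKO stood at 157 and 166 and a UTYKO_ctrl library at 162. In complex IV, DKO stood at 1531 and 1624 and a UTYKO library at 1552. The second UTXKO library had the highest total of all 10.

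**Figure D1:**
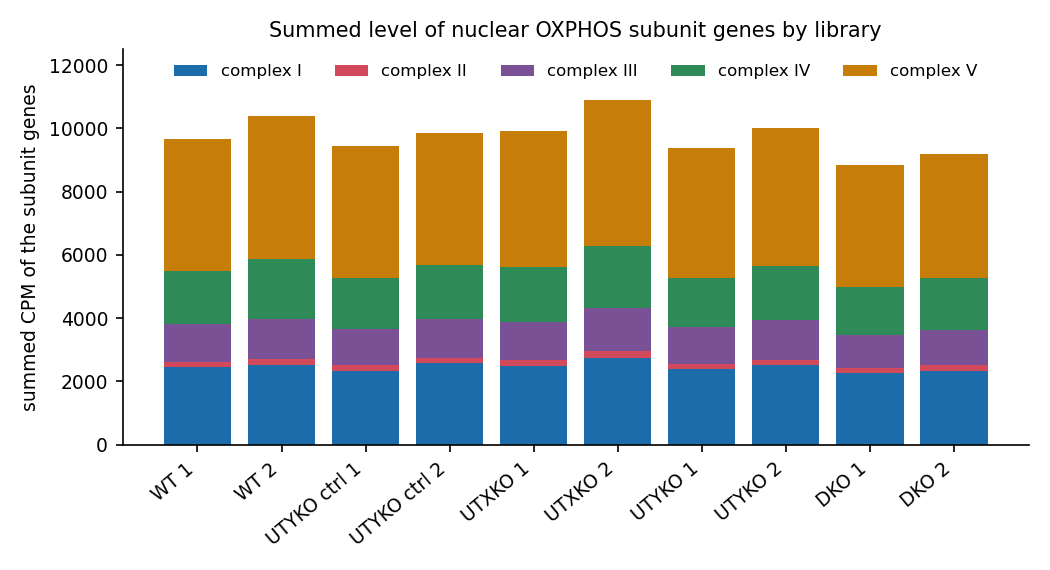
Summed CPM of the nuclear OXPHOS subunit genes in each of the 10 undifferentiated SEES3 libraries, stacked by complex. The 2 DKO bars, at 8829 and 9188 CPM, are the lowest.

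In libraries labelled DKO against WT, subunit genes of all 5 complexes were lower by modest amounts. By edgeR's quasi-likelihood test with Benjamini-Hochberg adjustment over all genes (adjusted p under 0.05), 36 of 79 tested members fell and 3 rose. In all, 46.9% of the 14637 genes tested were called, 23.4% lower and 23.5% higher, so the members' share called, 49.4%, is near that of all genes; 45.6% of the members were called lower. The median log2 fold change was -0.18 over the members against 0.00 over all genes tested. No called member moved 2-fold. In a joint fit of the 10 undifferentiated libraries the count was 11 of 80 (1 higher, 10 lower). There 4745 of all 15191 genes were called, so the members' share was the smaller. Against UTYKO_ctrl in that fit the count was 12 (1 and 11), with the share of all genes not given here. It was 24 without WT replicate 2 and 20 without DKO replicate 1.

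**Figure D2:**
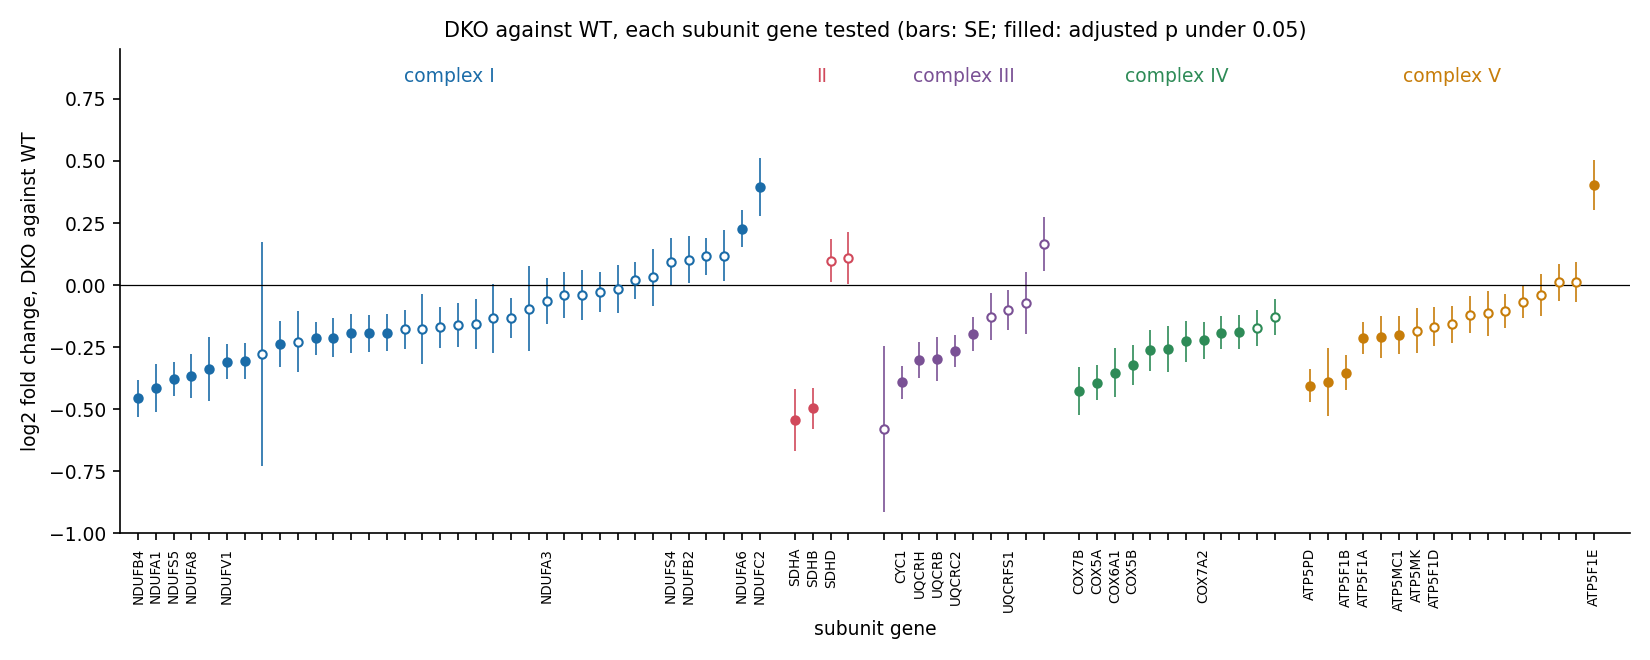
Log2 fold change of each tested subunit gene in DKO against WT, ordered within its complex; bars are standard errors and filled points have an adjusted p under 0.05 (edgeR), with names given for some of the genes. Of 79 genes, 65 lie below 0, and the complex IV genes all do.

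Complex I, which accepts electrons from NADH, had 13 of 36 tested members lower and 2 higher. NDUFB4, a supernumerary membrane-arm subunit, stood at 110 and 99.6 CPM in WT and at 78.5 and 78.7 in DKO, a log2 change of -0.46 (SE 0.073, adjusted p = 2.4e-05, edgeR). NDUFS5 went from 222 and 244 CPM to 185 and 186 (log2 change -0.38, SE 0.069, adjusted p = 0.000107, edgeR). In neither gene did the groups overlap. NDUFV1, the core subunit that binds NADH, stood at 146 and 155 CPM against 126 and 126 (log2 change -0.31), and X-linked NDUFA1 at 51.7 and 60.4 against 41.8 and 46.5 (log2 change -0.41). Both were also lower than WT without overlap, but not below all other undifferentiated libraries. The lowest of those others were at 121 CPM for NDUFV1 and 41.1 for NDUFA1. The core subunit NDUFS1 fell as well, by 0.21 on the log2 scale, and NDUFA8 fell by 0.37. Against these, NDUFC2 rose, from 23.6 and 24.2 CPM to 29.1 and 36.4 (log2 change 0.39), as did NDUFA6, from 74.3 and 80.1 to 95.3 and 92.7 (log2 change 0.23).

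Complex II was split. SDHB, the iron-sulfur subunit that passes electrons on from succinate, stood at 69.1 and 66.7 CPM in WT and at 50.4 and 49.0 in DKO, a log2 change of -0.50 (SE 0.082, adjusted p = 3.28e-05, edgeR). Its 2 DKO values were below all 8 other undifferentiated libraries, which ran from 66.4 to 80.0. SDHA also fell, from 23.3 and 27.1 CPM to 17.997 and 18.3 (log2 change -0.54), but UTYKO_ctrl was as low at 16.8 and 18.5, and the pseudogene counts above leave its level uncertain. The membrane anchors SDHC and SDHD did not pass, with log2 changes of 0.11 and 0.10.

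Complex III, which hands electrons from ubiquinol to cytochrome c, had 5 of 10 tested members lower and none higher. CYC1, its cytochrome c1 subunit, stood at 162 and 161 CPM in WT and at 125 and 130 in DKO (log2 change -0.39, SE 0.067, adjusted p = 4.96e-05, edgeR). UQCRH stood at 184 and 190 CPM against 146 and 169 (log2 change -0.30), UQCRB at 118 and 148 against 112 and 114 (-0.30), and the core protein UQCRC2 at 248 and 258 against 215 and 221 (-0.27). Each of these 4 was lower in both DKO libraries than in both WT libraries. UQCRC2 depended on the choice of control: against UTYKO_ctrl, at 218 and 190 CPM, its log2 change was 0.0497 (joint fit). For UQCRB, UTYKO_ctrl averaged 120 ± 7.64 CPM.

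Complex IV, the terminal oxidase, had 10 of its 12 tested members lower and none higher; the other 2, COX4I1 and COX7A2L, did not pass. COX5A, a nuclear subunit on the matrix side, stood at 157 and 166 CPM in WT and at 129 and 126 in DKO (log2 change -0.39, SE 0.069, adjusted p = 6.82e-05, edgeR). COX7B stood at 84.4 and 108 CPM against 72.5 and 77.6 (log2 change -0.43), COX5B at 118 and 139 against 109 and 105 (-0.32), and COX6A1 at 40.3 and 37.8 against 29.9 and 33.3 (-0.35). DKO and WT did not overlap in any of the 4, but only COX5A had both DKO values below all other undifferentiated libraries. The lowest of those others were at 75.6 CPM for COX7B, 106 for COX5B and 30.5 for COX6A1. For COX6A1, UTYKO_ctrl averaged 31.6 ± 1.60 CPM. The remaining called members, COX6B1, COX8A, COX6C, COX7A2, NDUFA4 and COX7C, fell by 0.19 to 0.26 on the log2 scale.

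Complex V, the ATP synthase, had 6 of 17 tested members lower and 1 higher. ATP5PD, the d subunit of the peripheral stalk, stood at 146 and 140 CPM in WT and at 111 and 112 in DKO (log2 change -0.40, SE 0.067, adjusted p = 3.68e-05, edgeR). UTYKO_ctrl was itself at 113 and 117 CPM for this gene, and against it the log2 change was -0.09 (adjusted p = 0.566, edgeR, joint fit). The abundant F1 subunits ATP5F1B and ATP5F1A were lower too, the former at 1325 and 1496 CPM against 1144 and 1144 (log2 change -0.35), the latter at 1154 and 1218 against 1050.4 and 1069 (-0.21). ATP5F1E, the epsilon subunit of the same F1 head, went the other way, from 34.3 and 41.4 CPM to 54.8 and 50.3 (log2 change 0.40, SE 0.10, adjusted p = 0.00237, edgeR). UTYKO_ctrl, at 49.1 and 50.2 CPM, was close to that level.

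NDUFB4, SDHB, CYC1, COX5A and ATP5F1B were called lower in DKO against WT under every alternative tried, the other control set included; the largest adjusted p was 0.0494, for NDUFB4. Counting libraries rather than tests, 16 of 80 members had both DKO values below the other 8 undifferentiated libraries, against 12.5% of all 15191 genes, and 1 of 80, ATP5F1E, had both above, against 19.6% of all. The 16 are ATP5F1B, ATP5MC1, ATP5PD, COX5A, CYC1, NDUFA8, NDUFA9, NDUFB4, NDUFB9, NDUFC1, NDUFS1, NDUFS5, NDUFS6, NDUFV3, SDHB and UQCRH. Subunit mRNAs are short, with a median coding transcript of 702.5 bases against 1759 for all protein-coding genes. Other genes under 1000 bases had a median log2 change of -0.04 in DKO, and the members had -0.19 under and -0.16 over that length. Neural markers, all 7 detected in DKO, moved with the group, at 940 and 904 CPM against 573 and 580 in WT; their part in the result was not tested. In bulk samples, less RNA per cell and fewer cells of a kind cannot be told apart.

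**Figure D3:**
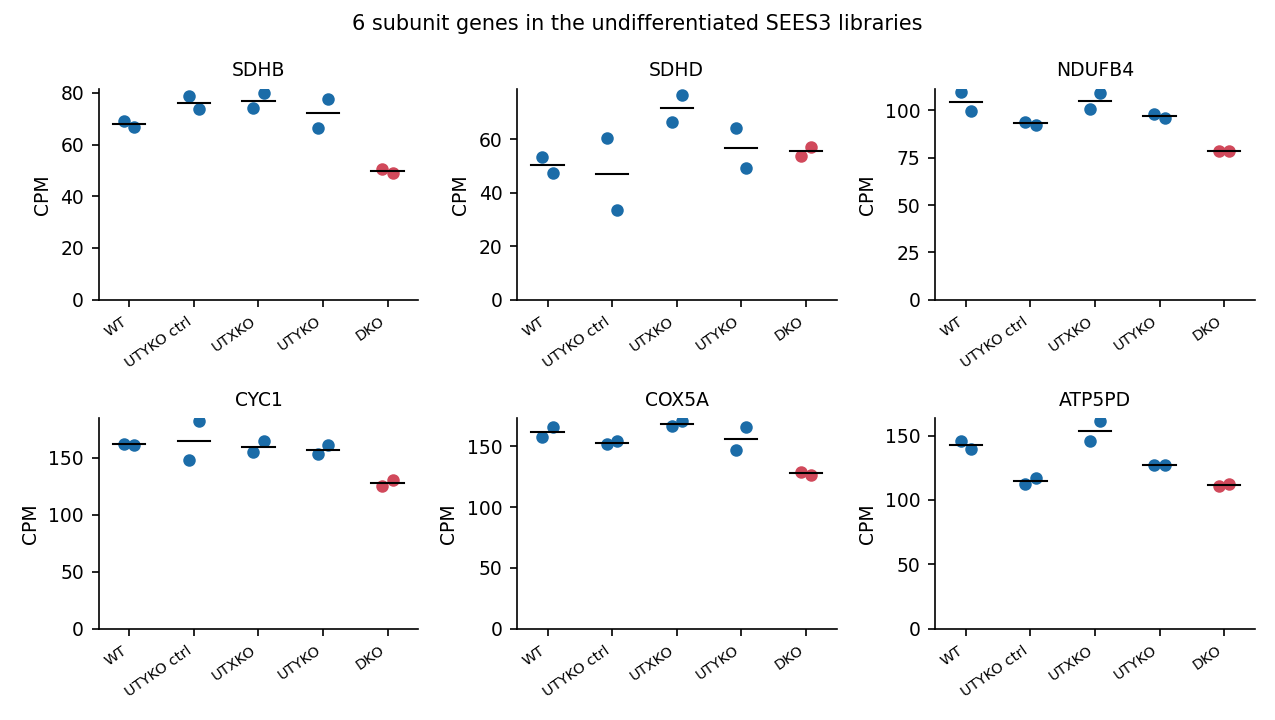
CPM of 6 subunit genes in each undifferentiated library (points; black lines are group means of 2). DKO, in red, lies below all other groups for SDHB, NDUFB4, CYC1, COX5A and, narrowly, ATP5PD, while SDHD is highest in UTXKO.

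Libraries labelled UTXKO, set against the same WT libraries, gave few calls, all higher. Of 78 members tested, 4 rose and none fell, where 12.5% of all genes were called (6.2% higher and 6.31% lower), so the members' share is below that of all genes. SDHD, a complex II anchor, stood at 53.2 and 47.5 CPM in WT and at 66.4 and 76.6 in UTXKO (log2 change 0.52, SE 0.10, adjusted p = 0.00084, edgeR). In UTYKO_ctrl it spanned 60.5 to 33.5 CPM, a wider range than the step between groups. NDUFC2 rose from 23.6 and 24.2 CPM to 25.9 and 39.8 (log2 change 0.45), ATP5MK, a small membrane subunit of the synthase, from 59.9 and 62.4 to 67.6 and 89.8 (0.36), and ATP5MC1, which encodes a ring subunit, from 92.3 and 91.2 to 102 and 122 (0.29). In each the second UTXKO library was the higher. Fibroblast markers, at 224 and 216 CPM in UTXKO against 316 and 317 in WT, moved with the group, and their part was not tested. The members' median log2 change was 0.11 against 0.00 over all genes, and fell to 0.00 without UTXKO replicate 2. Without that library 1 member was called, without UTXKO replicate 1 13 were, without WT replicate 1 only 1 was, and in the joint fit of 10 libraries none was (edgeR; 16, or 20.5%, had an unadjusted p under 0.05 in the fit of 4 libraries, against 27.1% of all genes).

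Against UTXKO rather than WT, DKO asks what the second knockout adds. Fitted with the WT libraries, 38 of 78 members were lower and none higher, where 34.9% of all genes were called, 16.6% lower and 18.3% higher. The median was -0.23 against 0.00 over all genes. This comparison shares the DKO libraries with the one above and is no second measurement of them. SDHB, at 74.2 and 80.0 CPM in UTXKO, had the smallest p here (log2 change -0.66, SE 0.087, adjusted p = 1.14e-06, edgeR). SDHD, at 66.4 and 76.6 CPM against 53.9 and 57.1, was lower by a log2 change of -0.40. In complex I, NDUFA8 fell from 66.0 and 79.3 CPM to 49.7 and 49.5 (-0.58) and NDUFA1 from 60.4 and 62.8 to 41.8 and 46.5 (-0.51). NDUFB4, at 101 and 109 CPM in UTXKO, fell by 0.45 and NDUFS5, at 225 and 254, by 0.40 on the log2 scale.

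The complexes further down the chain gave the same direction against UTXKO. In complex III, 6 of 10 members were lower: CYC1 stood at 155 and 164 CPM in UTXKO (log2 change -0.35), UQCRH at 174 and 233 (-0.40), UQCRB at 127 and 147 (-0.30), and the Rieske protein UQCRFS1 fell from 86.2 and 103 to 73.4 and 79.8 (-0.33). In complex IV 9 of 12 were lower: COX5A stood at 167 and 171 CPM in UTXKO (-0.43), COX7B at 94.8 and 101 (-0.42) and COX6A1 at 37.2 and 47.4 (-0.45), while COX7A2 fell from 129 and 161 to 107 and 123 (-0.36). In complex V 9 of 17 were lower: ATP5PD stood at 146 and 161 CPM in UTXKO (-0.49), ATP5MC1 fell from 102 and 122 to 77.4 and 88.1 (-0.47), ATP5MK from 67.6 and 89.8 to 51.0 and 61.2 (-0.52), and ATP5F1B from 1376 and 1373 to 1144 and 1144 (-0.29). None of these genes overlapped between the groups. Without UTXKO replicate 2 the count was 23 and without DKO replicate 1 it was 19; all calls stayed on the lower side. ATP5F1E, NDUFC2 and NDUFA6, higher in DKO against WT, had log2 changes of 0.23, -0.03 and -0.01 here and did not pass.

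UTYKO against its own control gave no called member of 78 by edgeR or by DESeq2, with 1 (1.28%) at an unadjusted p under 0.05 against 5.95% of all genes; 0.606% of all genes were called, 0.0953% higher and 0.511% lower. The median was -0.01. Standard errors were larger here than for the same genes in DKO against WT, at 0.17 for SDHB, 0.16 for NDUFB4 and 0.16 for CYC1. Changes as small as most of those in DKO could thus go uncalled here. ATP5F1E was the gene with that p, at 49.1 and 50.2 CPM in UTYKO_ctrl and 33.2 and 40.2 in UTYKO (log2 change -0.43, adjusted p = 0.691, edgeR). Without UTYKO_ctrl replicate 1, 4 members were called, 2 each way.

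The 2 wild-type sets differed in 5 of 80 members, where 19.1% of all genes were called, 10.3% higher and 8.79% lower (edgeR, joint fit). SDHA was lower in UTYKO_ctrl (values above; log2 change -0.50), as was UQCRC2, at 218 and 190 CPM (-0.29). COX6B2 was also lower, at 0 and 0.267 CPM against 0.594 and 1.10, a few counts in all. ATP5F1E was higher (0.40), as was ATP5F1D, the delta subunit of F1, from 66.0 and 66.0 CPM to 73.7 and 97.6 (0.41). Without UTYKO_ctrl replicate 1 the count was 23, and without either WT library it was 0. Both SDHA and UQCRC2 were thus called lower in DKO against one wild-type set and in the other wild-type set alike.

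Gene lists of the wider pathway were counted in the same fits, to be read against the 23.5% of all genes called higher and 23.4% called lower in DKO against WT. In DKO against WT, 7 of 13 citric acid cycle genes fell and 1 rose, among them IDH3A, an isocitrate dehydrogenase subunit (log2 change -1.01, adjusted p = 5.38e-06, edgeR), and MDH2 (-0.47). Of 13 mitochondrially encoded subunits 7 fell, such as MT-ND2 (-0.48), and MT-CYB rose (0.36). Assembly factors had 8 of 47 higher, such as LYRM7 (0.50) and ATPAF1 (0.32), and 4 lower. Mitochondrial ribosomal proteins had 16 of 76 lower, such as MRPL42 (-0.59), and 7 higher, such as MRPL1 (0.85); for assembly factors and mitochondrial ribosomal proteins the shares are near or below those of all genes. Cytosolic ribosomal proteins, also short and abundant mRNAs, had 39 of 78 lower and 3 higher, with a median of -0.17 close to that of the subunit genes. Glycolysis genes had 17 of 20 lower and 1 higher, such as PFKP (-1.28). Of the carriers, 4 of 8 fell, among them the ADP exchangers SLC25A4 (-0.43) and SLC25A5 (-0.38), and of the regulators of mitochondrial biogenesis 4 of 14 fell, such as POLG (-0.46), and 4 rose.

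In UTXKO against WT, where 6.2% of all genes were called higher and 6.31% lower, the wider lists gave 8 of 47 assembly factors higher and 1 lower, and 15 of 76 mitochondrial ribosomal proteins higher and 1 lower. CYCS, which encodes cytochrome c, rose (log2 change 0.51, adjusted p = 0.000123, edgeR), and NDUFAF4, an assembly factor of complex I, rose (0.64). Of 20 glycolysis genes, 8 fell and 1 rose. The UTYKO_ctrl libraries, which are wild type, gave counts against WT, where 10.3% of all genes were called higher and 8.79% lower, of 11 of 48 assembly factors and 15 of 76 mitochondrial ribosomal proteins higher. In DKO against UTXKO, with 18.3% of all genes called higher and 16.6% lower, CYCS fell (-0.54), 35 of 76 mitochondrial ribosomal proteins fell and none rose, and 7 of 13 citric acid cycle genes fell.

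**Figure D4:**
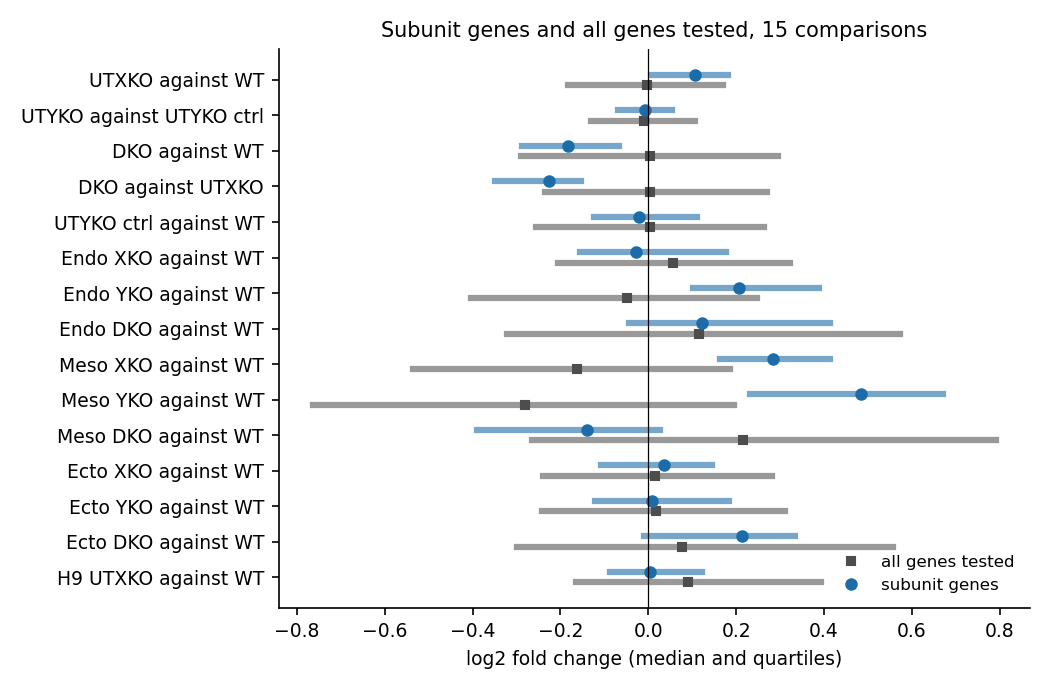
Median log2 fold change (point) and quartiles (bar) of the subunit genes in blue and of all genes tested in grey, for the 15 comparisons. The 3 Meso comparisons, Endo YKO and the 2 DKO comparisons of undifferentiated cells show the members farthest from all genes.

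In the layers and H9 the values are TPM and the test is limma on log2(TPM + 1), which understates the change of low genes. Since TPM are shares of a whole, the median of all genes moved by itself: it was 0.12 in Endo DKO, -0.16 in Meso XKO, -0.28 in Meso YKO and 0.21 in Meso DKO, and TMM factors move it by over 0.1 in these 4. Members are therefore also given relative to it. Summed TPM of the members were 14452 and 14497 in Endo WT, 14440 and 13398 in XKO, 17687 and 15028 in YKO and 15879 and 15211 in DKO. In Meso they were 18006 and 18208 in WT, 20013 and 22887 in XKO, 20112.5 and 27803 in YKO and 15085 and 15112.5 in DKO. In Ecto they were 14252 and 14309 in WT, 14288 and 14259 in XKO, 13992 and 15401 in YKO and 15023 and 15316 in DKO. Meso libraries thus spread most, with 1 YKO library far above the rest and both DKO libraries lowest.

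**Figure D5:**
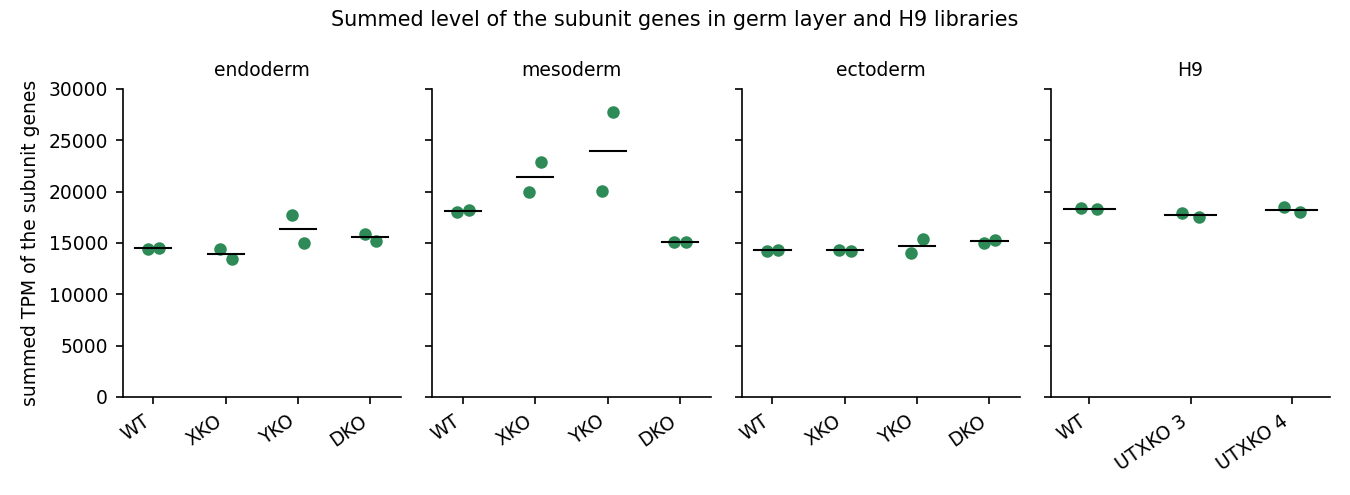
Summed TPM of the subunit genes in each germ layer and H9 library (points; black lines are group means of 2). Meso runs from 15085 in DKO to 27803 in 1 YKO library; the tables were normalised separately, so panels are side by side only.

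In mesoderm, 2 of 79 members were lower in DKO and none higher, where 10.1% of all genes were called, 6.37% higher and 3.7% lower. SDHB stood at 144 and 137 TPM in WT and at 74.6 and 84.4 in DKO (log2 change -0.82, SE 0.18, adjusted p = 0.028, limma), with XKO at 128 and 124 and YKO at 130 and 102 in between. UQCRH stood at 728 and 839 TPM in WT and at 520.0 and 496 in DKO (log2 change -0.62, adjusted p = 0.0364, limma). Neither gene overlapped between DKO and WT, and neither call held when any 1 of the 4 libraries was left out. The members' median was -0.14, or -0.35 relative to all genes. The mesoderm markers, 7 in the table with 1 at 0 in DKO, summed to 1798 and 1635 TPM in DKO against 2501 and 2222 in WT, and the neural markers to 720 and 694 against 251 and 241; their part in these values was not tested.

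Single knockouts in mesoderm gave no called member of 79 by limma. In Meso YKO 27 (34.2%) had an unadjusted p under 0.05, against 24.2% of all genes, and 66 of 79 had a log2 change above 0 (83.5%, against 33.5% of all genes), with a median of 0.48, or 0.77 relative to all genes. UQCR10, a small complex III subunit, had the smallest p (140 TPM in WT and 291 in YKO on average, log2 change 1.03, adjusted p = 0.0991, limma); it was picked after its values were seen. The library with the summed 27803 TPM carries much of this: the median is 0.68 without the other YKO library and 0.24 without this one. In Meso XKO 6 (7.59%) had an unadjusted p under 0.05, against 10.7% of all genes, and the median was 0.28, or 0.45 relative to all genes. In YKO 0.0132% of all genes were called, all higher, and in XKO 0.0397%, of which 0.0198% higher and 0.0198% lower.

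In endoderm, 4 of 77 members were called in DKO, where 12.1% of all genes were, 7.01% higher and 5.1% lower. NDUFS4, an accessory subunit of the electron input module, rose from 110 and 126 TPM to 203 and 201 (log2 change 0.77, SE 0.13, adjusted p = 0.00977, limma). NDUFA6 rose from 209 and 158 TPM to 355 and 304 (0.85), and NDUFB2 from 27.5 and 31.1 to 52.4 and 55.3 (0.86). SDHD fell from 77.3 and 103 TPM to 54.2 and 52.9 (-0.72). No group overlapped in these 4 genes. Leaving out 1 library left 0 to 2 calls. The median of 0.12 equals that of all genes, at 0.01 relative to them. Endoderm markers, none at 0, summed to 9532 and 8918 TPM in DKO against 31654 and 31378 in WT, and their part was not tested. XKO and YKO gave no called member by limma. Each had 6 members (7.79%) at an unadjusted p under 0.05, against 7.86% and 12.6% of all genes. Of all genes, 0.0319% (0.0192% higher, 0.0128% lower) and 0.0255% (all higher) were called. In YKO 63 of 77 members had a log2 change above 0 (81.8%, against 43.7% of all genes). The members' median was 0.21 in YKO, or 0.25 relative to all genes, and -0.03 in XKO, or -0.08 relative to them.

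In ectoderm no member was called in any of the 3 knockouts by limma, where 0.356%, 0.0842% and 8.03% of all genes were called in XKO, YKO and DKO. At an unadjusted p under 0.05 were 1 of 78 members (1.28%) in XKO, 6 (7.69%) in YKO and 10 (12.8%) in DKO, each below the 8.82%, 9.17% and 23.7% of all genes. The share called higher was 0.22%, 0.0583% and 4.18%, and lower 0.136%, 0.0259% and 3.86%. The DKO median was 0.21, or 0.14 relative to all genes, and 57 of 78 members had a log2 change above 0 (73.1%, against 55.1% of all genes). SDHB overlapped between the groups here, at 48.5 and 73.2 TPM in WT and 64.3 and 67.8 in DKO. Neural markers were at 3159 and 2651 TPM in DKO against 1333 and 1414 in WT, and fibroblast markers, with none at 0 in DKO and 4 in WT, at 650 and 451 against 56.5 and 66.6; their part was not tested.

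In H9, UTXKO against WT gave 1 of 79 members higher and 1 lower, where 4.58% of all genes were called, 2.81% higher and 1.77% lower. NDUFA3, a supernumerary subunit of complex I, stood at 62.0 and 68.1 TPM in WT, 85.8 and 82.5 in set 3 and 93.2 and 89.7 in set 4 (log2 change 0.43, SE 0.087, adjusted p = 0.0379, limma). CYC1 stood at 309 and 339 TPM in WT, 258 and 250.4 in set 3 and 268 and 247 in set 4 (-0.34, SE 0.063, adjusted p = 0.0297, limma). All 4 UTXKO libraries were on one side of both WT libraries for each gene. The fit took sets 3 and 4 as 1 group with no term for set, so these p-values leave out any difference between sets. Neither was called with either set alone, nor on leaving out any 1 library. The median was 0.00 against 0.09 over all genes, and the members summed to 18387 and 18288 TPM in WT and 17573 to 18463 in the 4 UTXKO libraries, which overlap. Neural markers, all 7 detected, summed to 524 and 513 TPM in WT and 275 to 345 in UTXKO; their part was not tested. In SEES3 UTXKO, CYC1 had a log2 change of -0.01 (adjusted p = 0.938, edgeR); the difference between the lines was not tested.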

How the data were processed

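PolyA RNA was extracted and made into libraries with a directional kit, per the labels' protocols. Gene counts of the 10 undifferentiated SEES3 libraries and TPM of the 24 layer and 6 H9 libraries were deposited by the authors. STAR, featureCounts and RSEM are named for every library in the submitters' processing notes, with edgeR for the undifferentiated ones, and GRCh38 as the build; versions and the use of strand in counting are not given in any source used here. Tables were normalised separately, so no test crosses them, and 12 further columns of the table that holds H9 were not used. Symbols matched 99.65% to 99.8% of IDs.

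For counts the test was the quasi-likelihood one of edgeR 4.0.16, with TMM factors and its default filter on low counts. Each fit held the 4 libraries compared, except that DKO against UTXKO also held WT and UTYKO_ctrl against WT held all 10. TPM were tested with limma 3.58.1 with a trend on log2(TPM + 1), over all libraries of a layer or of H9 (its sets 3 and 4 as 1 group), keeping genes at 1 TPM or more in at least 2 libraries. P-values were Benjamini-Hochberg adjusted over all genes tested, with a threshold of 0.05. The fits were tested on simulated data. DESeq2 1.42.0, other scalings, filters, pseudocounts, sets of libraries, a replicate block and leaving out each library were tried. Replacing one wild-type set by the other, and scaling summed TPM by TMM factors, were chosen after seeing the data. No 2 libraries of a group held identical values.

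Values in every library are given for up to 4 called members of each complex with the smallest p in SEES3 and H9, up to 3 in layer DKO comparisons, the restricted forms with their partners, and the highest member of each complex in H9 WT; other lists give at most 2 genes per comparison. The members and lists were chosen with earlier results of these data known. One item is not reported here.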

Additional observations from a re-analysis of the deposited data

Results flagged for a closer look

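In unscaled TPM the difference of DKO from WT went in opposite directions between layers. Both DKO libraries were on one side of both WT libraries in each layer named. The difference between layers was not tested. Of the genes below, NDUFA6 and NDUFB2 were called in Endo only, and their changes in Meso and Ecto did not pass (limma). The share of all genes without overlap is not given here. The summed level of the subunit genes had a ratio of DKO to WT mean TPM of 1.07 in Endo and 1.06 in Ecto, but 0.834 in Meso. Divided by TMM factors, the ratios were 0.989 in Endo, 1.03 in Ecto and 0.728 in Meso; the groups then overlapped in Endo and Ecto, and DKO stayed below WT in Meso. Relative to all genes, the median log2 change in Endo DKO was 0.0052. NDUFA6, a complex I subunit, had a ratio of 1.8 in Endo and 1.17 in Ecto and of 0.854 in Meso. NDUFB2, also of complex I, had a ratio of 1.84 in Endo and 0.759 in Meso; in Ecto its groups overlapped. With TMM factors NDUFA6 had ratios of 1.65, 1.13 and 0.747 in Endo, Ecto and Meso, and NDUFB2 of 1.69 and 0.661 in Endo and Meso, without overlap between the groups.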

How the results depend on the processing

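Counts of called members against the main values depended on the tool, the libraries fitted and single libraries. By DESeq2 they were 1 (for 4) in UTXKO against WT, 19 (for 39) in DKO against WT, 25 (for 38) in DKO against UTXKO and 2 (for 5) in UTYKO_ctrl against WT. In a joint fit of the 10 libraries they were 0, 11 and 18 for the first 3, and UTYKO_ctrl against WT gave 0 with only its 4 libraries. Over all genes, DKO against WT called 6866 of 14637, with 4260 by DESeq2 and 4745 of 15191 in the joint fit. With the other wild-type set as control, chosen after seeing the data, UTXKO gave 1, UTYKO 1 (for 0) and DKO 12, and UQCRC2 in DKO turned from -0.27 to 0.0497. Leaving out 1 library gave 1 to 13 in UTXKO, 0 to 4 in UTYKO, 20 to 43 in DKO against WT, 19 to 46 in DKO against UTXKO, 0 to 23 in UTYKO_ctrl against WT, 0 to 2 in Endo DKO (for 4), 0 to 29 in Meso YKO (for 0, 29 without 1 YKO library), 0 in Meso DKO (for 2) and 0 to 1 in H9 (for 2). Except for the H9 UTXKO libraries, leaving out 1 library leaves 1 in its group. The shares of all genes called in such fits are not given here, so their counts cannot be set against all genes. Meso DKO gave 1 with TMM factors and 8 with only its 4 libraries. H9 gave 0 without a filter, 1 with TMM factors and 0 with set 3 or set 4 alone. With TMM factors the H9 median was -0.09, Endo DKO 0.00, Meso XKO 0.46, Meso YKO 0.82 and Meso DKO -0.34. Divided by TMM factors, the summed level in Endo turned from a DKO to WT ratio of 1.07 to 0.989.

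With the replicate number as a replicate block the counts were 9 in UTXKO, 0 in UTYKO, 41 and 45 in DKO against WT and UTXKO, and 9 in UTYKO_ctrl against WT. Deviations of same-numbered libraries correlated at 0.00303 to 0.242, so the numbers are not shown to pair them. No paired analysis was possible because the TPM columns carry no replicate number for the layers and H9. Depth of the TPM libraries is unknown.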
